A study of Mus musculus with 6 samples.

Results

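The complement factors and receptors described here are 9 genes of the 18019 in the deposited table, found by symbol with no minimum level. They are Cfd, Cfb, Cfp and C3 of the alternative pathway, the receptor genes C3ar1 and C5ar1, and C1qa, C1qb and C1qc, which encode the chains of C1q. The set was selected on measured FPKM in these same libraries, with the TPPU comparison known, and Cfd for its near absence in a pair of TPPU libraries. Their differences between the groups are therefore given as a description, with no test. The study sequenced poly(A) RNA of RAW264.7, a macrophage line from mouse, after induction with lipopolysaccharide (LPS), a bacterial product that both groups received. Controls without TPPU (3 libraries) were compared with cells given TPPU (3 libraries), an inhibitor of soluble epoxide hydrolase. The title places the comparison in M1 macrophage polarization and osteoarthritis of the jaw joint. The labels give neither doses nor times, and do not say that replicates were separate cultures, so the replicate spread behind each p-value may be technical in origin.

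Complement is a cascade of plasma and cell-derived proteins that marks particles and cells for uptake and lysis. In the alternative pathway the protease factor D (Cfd, also called adipsin) cuts factor B (Cfb) once it is bound to activated C3, and properdin (Cfp) stabilises the resulting enzyme, which cuts more C3. The fragments C3a and C5a act on the G protein-coupled receptors C3AR1 and C5AR1 of myeloid cells, and C1q starts the classical pathway. Liver is the main source of the plasma factors, adipose tissue of factor D, and macrophages and other myeloid cells make properdin and C1q.

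Values are FPKM (fragments scaled by exon length and by the library's depth, so that levels of genes are compared per length). Estimated depth was 17.7 to 22.8 M (mega) fragments per library. Correlations between libraries across genes, on log2(FPKM + 1), were 0.958 to 0.991. Control replicate 3 stood apart, correlating at no more than 0.977 with any other library. Its departure from the mean level of each gene ran with transcript GC content (rho 0.61 by Spearman, across 9522 genes, which are not independent replicates). Of 10 macrophage markers 9 were at 1 FPKM or more in each library, and the exception, Mertk, was at 0.0217 FPKM or less. The TPPU samples' descriptions also cite a column of another table named for an sh-LIS1 knockdown. Pafah1b1, which encodes LIS1, was at 11.7, 14.2 and 6.52 FPKM in control and at 10.7, 13.5 and 14.2 with TPPU, which overlap.

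The 9 genes covered a wide range of levels. Averaged over the 6 libraries, Cfp was at 143 FPKM, in the 98.6th percentile of all genes. It was followed by C5ar1 at 19.2, C3 at 9.95, C3ar1 at 6.48 and Cfd at 2.25. Cfb averaged 0.239 FPKM, C1qa 0.109, C1qb 0.0616 and C1qc 0.026. The ranges of neighbours in this order overlapped for C3 and C3ar1, although C3 was the higher of the pair in each library, at 1.16 to 2.58 times C3ar1. They also overlapped for Cfd and Cfb, with Cfb the higher in TPPU replicates 2 and 3, for Cfb and C1qa, and among the C1q genes. Only 5 of the 9, Cfd, Cfp, C3, C3ar1 and C5ar1, reached the filter for testing of 1 FPKM in 3 libraries.

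The groups did not overlap for 3 of the 9 genes. Cfp and C3ar1 were lower in each TPPU library than in each control, and C1qa was higher, at levels near the detection limit. Over all 18019 rows the groups were apart in 6.14% in the lower direction and 5.88% in the higher, 12.0% in both together. Among the 9728 genes tested they were apart in 7.88% in the lower direction and 7.48% in the higher, 15.4% together. Since the members were chosen with this contrast known, nothing is read from these counts.

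**Figure D1:**
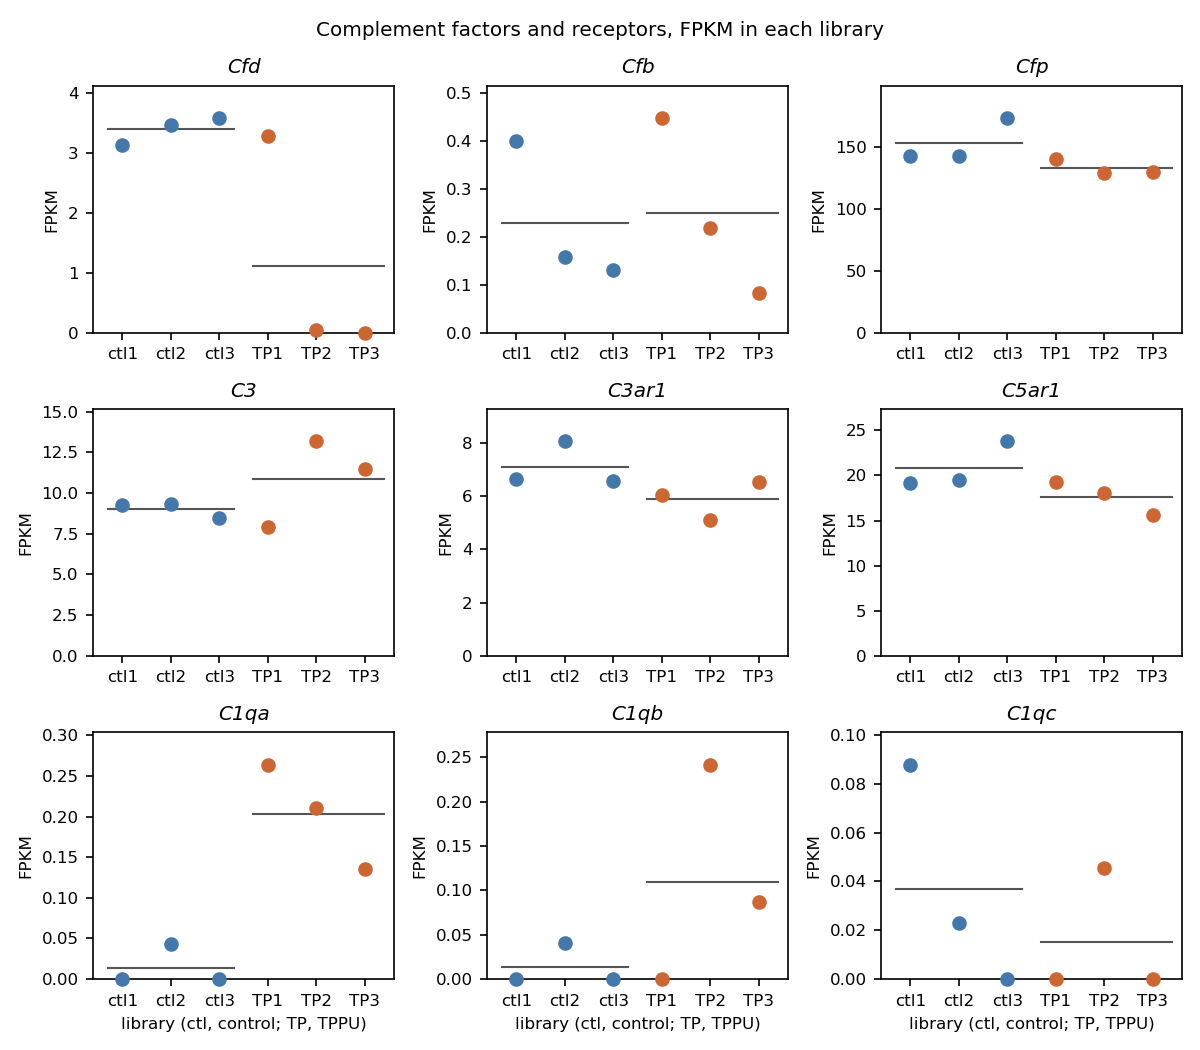
FPKM of the 9 genes (vertical axis, from 0) in each library (horizontal axis, ctl for control and TP for TPPU, numbered by replicate), with group means as lines. Cfd stands at 3.13 to 3.58 in the controls and TPPU replicate 1 but at 0.0476 and 0 in the other two libraries, while Cfp and C3ar1 are lower in each TPPU library than in each control.

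Cfd, the gene of factor D, the protease that starts the alternative pathway convertase, was present in 4 libraries and close to absent in the other two. It measured 3.13, 3.47 and 3.58 FPKM in control replicates 1, 2 and 3. With TPPU it measured 3.28 in replicate 1, 0.0476 in replicate 2 and 0 in replicate 3. The TPPU group thus holds one library at the control level and a pair near 0, and its mean of 1.11 FPKM describes none of them. The difference of mean log2(FPKM + 1) was -1.41 (SE 0.69), and it was -2.10 without TPPU replicate 1.

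The FPKM steps allowed the fragments behind these values to be estimated from the 922 bp of annotated Cfd exons. Cfd rested on about 51, 72 and 63 fragments in the controls and 55, 1 and 0 in TPPU replicates 1, 2 and 3. The exact 95% Poisson intervals, which cover counting error only, were 41.4 to 71.6 for TPPU replicate 1, 0.0253 to 5.57 for replicate 2 and 0 to 3.69 for replicate 3. A floor of 3 fragments, used below as a detection limit, is worth 0.153 FPKM of Cfd in TPPU replicate 3. Cfd was chosen for these values, so the intervals describe them and test nothing.

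**Figure D2:**
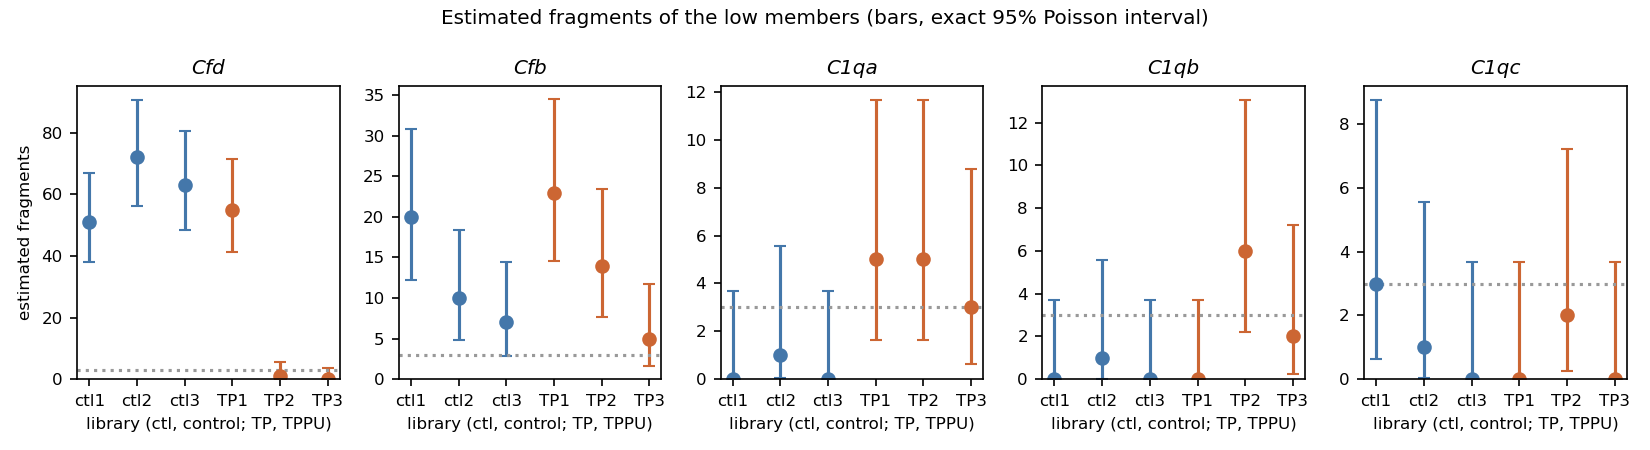
Estimated fragments (vertical axis) for the 5 low genes in each library (horizontal axis, ctl for control and TP for TPPU), with exact 95% Poisson intervals and a dotted line at 3 fragments. Cfd falls from 55 fragments in TPPU replicate 1 to 1 and 0 in replicates 2 and 3, while the C1q genes stay at 6 fragments or fewer in every library.

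Genes with a pattern like that of Cfd were sought among the tested genes by the root-mean-square difference of centred log2(FPKM + 1) over the 6 libraries. The nearest was Col6a1, a collagen VI chain, at a difference of 0.45, followed by Fbln2 (fibulin 2) at 0.49, Bgn (biglycan) at 0.50, Cidec at 0.52 and Hoxb5os at 0.61. The median was 1.00 over all tested genes outside the set. Cidec encodes a lipid droplet protein of fat cells. Col6a1 measured 1.30, 1.43 and 1.14 FPKM in control, and 1.17, 0.03 and 0 with TPPU. Cidec measured 1.25, 1.00 and 0.762 FPKM in control, and 1.45, 0 and 0 with TPPU. TPPU replicate 1 lay within the control range for Col6a1 and above it for Cidec. These genes were picked for their likeness to Cfd, so the shared pattern follows from the choice and is no separate evidence.

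Some adipocyte and fibroblast markers ran with Cfd across the libraries and others did not. Adipoq, the gene of the fat cell hormone adiponectin, measured 1.31, 0.997 and 0.986 FPKM in control and 1.59, 0 and 0.205 with TPPU. Plin1, a lipid droplet coat protein of adipocytes, was at 0.0669 to 0.268 in control, at 0.118 in TPPU replicate 1 and at 0 in replicates 2 and 3. Of 7 adipocyte markers in the table none was at 0 in the controls or TPPU replicate 1, and 3 and 2 were at 0 in TPPU replicates 2 and 3. Cidec, also picked above for its likeness to Cfd, is among those at 0 in each of these libraries.

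The summed adipocyte level was 24.3 to 25.3 FPKM in control and 23.6, 17.0 and 16.9 in TPPU replicates 1, 2 and 3. Most of that sum was Fabp4, a fatty acid binding protein that macrophages also express, at 18.3, 20.1 and 20.2 in control and 17.7, 14.1 and 14.5 with TPPU. Retn and Lipe ran less closely with Cfd. Retn in TPPU replicate 2 (0.722 FPKM) was above its lowest control (0.696). Lipe was higher in TPPU replicates 2 and 3 (2.15 and 1.58) than in replicate 1 (1.52). Pparg, like Plin1, was low throughout, at 0.0159 to 0.241, and was lowest in TPPU replicates 2 and 3 (0.0297 and 0.0159). Of 6 fibroblast markers, Col1a2, Col3a1 and Pdgfra were lowest in the libraries where Cfd was, and Col1a1, Dcn and Lum were not. Col1a2 measured 1.501, 0.926 and 0.952 FPKM in control and 0.884, 0.06 and 0.072 with TPPU, whereas Dcn (decorin) stayed at 0.0986 to 0.186 in all 6. Lum (lumican) measured 1.26, 1.97 and 2.77 and Col1a1 0.544, 0.742 and 0.646 with TPPU, both lowest there in replicate 1. The summed fibroblast level was 3.54 to 7.96 FPKM in control and 3.00 to 3.79 with TPPU, with 1 marker, Pdgfra, at 0 in TPPU replicate 2. Whether the Cfd and marker transcripts were made in the RAW264.7 cells or entered these libraries from RNA of other cells or libraries was not tested, and in bulk RNA fewer cells of a type and less RNA per cell cannot be told apart.

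Neutrophils and their precursors also make factor D. Of 7 such markers in the table, Csf3r, a receptor gene that macrophages share, was the only one at 1 FPKM or more in any library. S100a8 and S100a9 were at 0 in each control but for 0.064 FPKM of S100a8 in replicate 2, and S100a9 was at 0, 0.168 and 0.271 with TPPU. The summed level was 8.64 to 10.6 FPKM in control and 8.74 to 11.3 with TPPU, with 3 to 4 markers at 0 in control and 1 to 3 with TPPU.

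Cfd lies on chromosome 10 (79890853 to 79892655, GRCm38, the build also called mm10), in a cluster of serine protease genes. The expressed neighbour Med16, a subunit of the Mediator complex, lies 2051 bp away and measured 1.61, 1.70 and 2.41 FPKM in control and 1.72, 2.27 and 1.81 with TPPU. R3hdm4, the next gene on that side, was at 6.91 to 9.06 in all libraries. The protease gene Prtn3 on the other side was at 0.212 or less, and Elane was not analysed here. Med16 with TPPU lay within its control range, as did R3hdm4 except in TPPU replicate 1, which was just below.

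Cfb, the gene of factor B, was low throughout. It measured 0.400, 0.157 and 0.130 FPKM in control and 0.447, 0.217 and 0.0834 with TPPU, on about 20, 10, 7, 23, 14 and 5 fragments in that order. The groups overlapped across their whole range, and the difference of 0.02 (SE 0.16) changed sign when control replicate 2, control replicate 3 or TPPU replicate 1 was left out. Cfb lies on chromosome 17 (34856374 to 34862514) between Nelfe, which lies 2 bp away and was at 15.6 to 19.8 FPKM, and C2, which lies 88 bp away and was at 0.0365 to 0.156. Whether the counting used strand is not given in the sources used here, and transcripts that run past such close ends cannot be told apart from Cfb.

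Cfp, the gene of properdin, the stabiliser of the alternative pathway convertase, was the most abundant of the 9 genes. It measured 143, 143 and 173 FPKM in control replicates 1, 2 and 3, and 140.4, 129 and 130.1 with TPPU. The groups were apart by a narrow margin, since TPPU replicate 1 lay just under the lower controls. The difference of mean log2(FPKM + 1) was -0.19 (SE 0.10). It was -0.24 without control replicate 2 and -0.10 without control replicate 3, whose value was the highest. The Cfp transcript has a GC content of 56.3%, against a median of 49.6% over tested genes, and GC-rich transcripts read higher in control replicate 3 (rho 0.61) and, less so, in TPPU replicate 1 (rho 0.24), the libraries with the highest Cfp of their groups. With the trend on GC removed, a step chosen after the data were seen, the difference was -0.16 and the groups stayed apart. Whether GC content had a part in the Cfp values was not tested. On the X chromosome (20925454 to 20931555), its neighbour Elk1, which lies 1840 bp away, was at 7.01 to 7.79 in control and 6.90 to 7.44 with TPPU, which overlap.

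C3, the central component on which all the pathways converge, was highest in the libraries where Cfd was close to absent. It measured 9.28, 9.35 and 8.48 FPKM in control and 7.93, 13.2 and 11.5 in TPPU replicates 1, 2 and 3. TPPU replicate 1 was the lowest of the 6 libraries and the other TPPU libraries were the highest, so the groups overlapped. The difference was 0.22 (SE 0.20) on the log2 scale, 0.41 without TPPU replicate 1 and 0.07 without TPPU replicate 2. The level of Cfp was 15.3 to 20.5 times that of C3 in control and 17.7, 9.79 and 11.3 times in TPPU replicates 1, 2 and 3.

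Hepatocyte markers were also highest in those libraries. All 8 in the list were above 0 in each library, with a summed level of 58.3 to 93.4 FPKM in control and 103 to 199.6 with TPPU. Alb (albumin) was the highest of the 8 in each library, at 24.5, 38.1 and 59.0 in control and 66.4, 113 and 98.4 with TPPU. Without Alb the sum was 33.9, 38.0 and 34.4 FPKM in control and 36.3, 86.8 and 69.7 in TPPU replicates 1, 2 and 3. Ahsg, which encodes the liver plasma protein fetuin-A, measured 4.58, 4.65 and 4.81 FPKM in control and 4.22, 13.7 and 12.0 with TPPU. As with C3, TPPU replicate 1 had the lowest Ahsg of the 6 libraries and the other TPPU libraries the highest. The other 7 markers also had TPPU replicates 2 and 3 highest, but TPPU replicate 1 was above all controls for Alb, Ttr, Serpina1a and Cyp3a11 and within their range for Apoa1, Apoa2 and Fgb. Albumin transcripts are not typical of a macrophage line, and whether C3 and liver transcripts were made in these cells or came from RNA of another source was not tested.

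**Figure D3:**
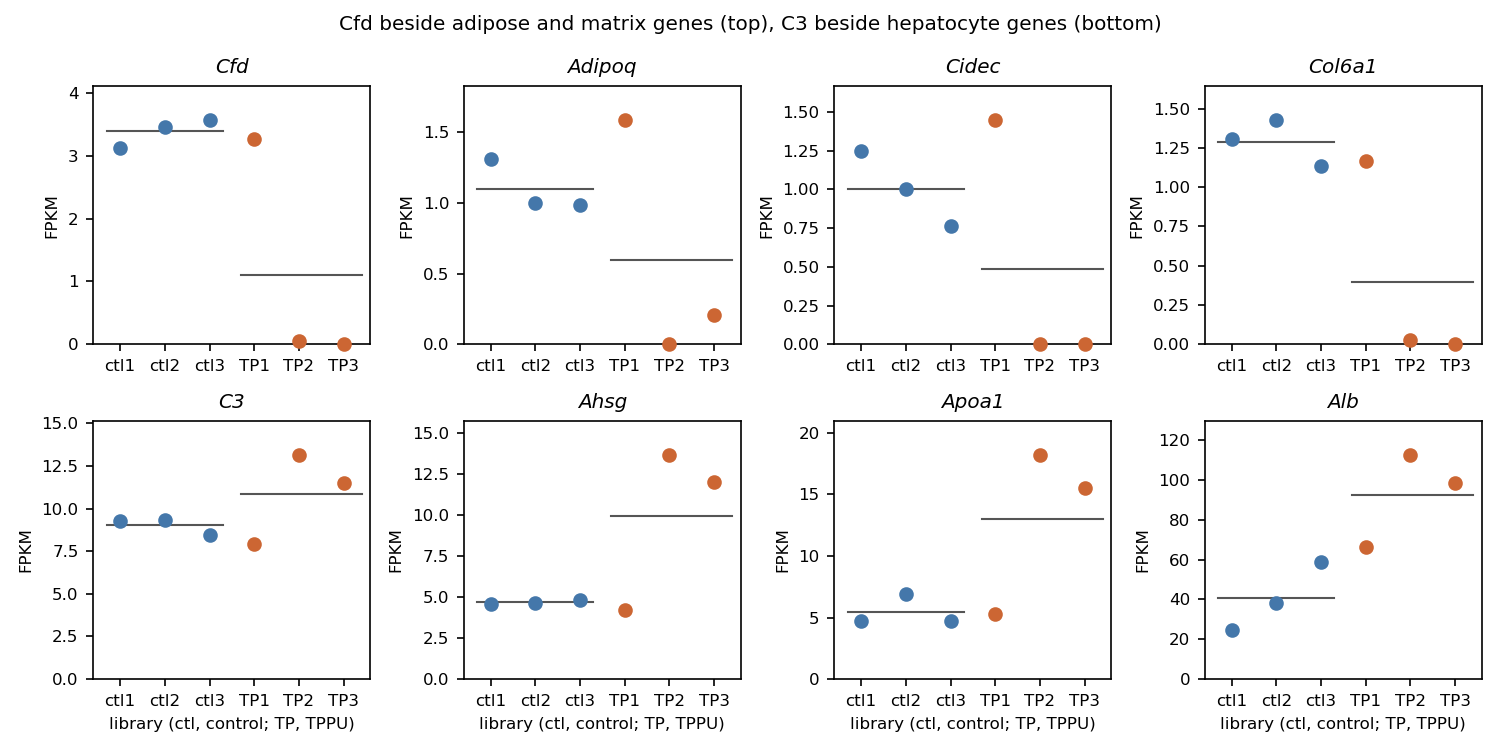
FPKM (vertical axes, from 0) of Cfd with Adipoq, Cidec and Col6a1 in the upper panels and of C3 with Ahsg, Apoa1 and Alb in the lower panels, in each library (horizontal axes, ctl for control and TP for TPPU), with group means as lines. The upper genes are at 0.205 FPKM or less in TPPU replicates 2 and 3, where C3, Ahsg, Apoa1 and Alb are at their highest. Cidec and Col6a1 were picked for a pattern like that of Cfd.

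The 250 bases before the RefSeq start of Cfd, C3 and C3ar1 (GRCm38.p6) are shown. Cfd stands for the near absence in a pair of TPPU libraries and C3 for the higher level in the same pair. C3ar1 stands for a lower receptor mean with TPPU, with groups apart by a narrow margin and not under every scaling. These windows lie at chr10:79890603-79890852 on the plus strand, chr17:57228137-57228386 on the minus strand and chr6:122856158-122856407 on the minus strand, and read 5′ to 3′ towards the start. Capitals mark matches to the motifs searched.
Cfd: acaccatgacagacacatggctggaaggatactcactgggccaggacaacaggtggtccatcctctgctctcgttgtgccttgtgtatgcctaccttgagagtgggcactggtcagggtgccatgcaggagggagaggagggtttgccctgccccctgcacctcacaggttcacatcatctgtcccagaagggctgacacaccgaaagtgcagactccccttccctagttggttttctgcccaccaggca
C3: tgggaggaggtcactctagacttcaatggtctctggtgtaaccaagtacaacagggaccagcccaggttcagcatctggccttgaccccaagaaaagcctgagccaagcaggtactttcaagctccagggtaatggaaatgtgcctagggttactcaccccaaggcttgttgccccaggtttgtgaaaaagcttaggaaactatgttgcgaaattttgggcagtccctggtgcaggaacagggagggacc
C3ar1: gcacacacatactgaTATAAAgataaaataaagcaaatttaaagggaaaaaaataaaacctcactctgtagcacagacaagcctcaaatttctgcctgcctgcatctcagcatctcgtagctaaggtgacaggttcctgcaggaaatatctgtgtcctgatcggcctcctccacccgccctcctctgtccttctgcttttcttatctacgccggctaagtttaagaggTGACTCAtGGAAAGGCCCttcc
Promoters of 7 of the 9 genes were matched, C1qa and Cfb being named only. Both strands were searched for the TATA box TATAAA, the CCAAT box (spelled as named), the C/EBP palindrome TTGCNNCAA, the ETS core GAGGAAG, the NF-κB motif (GGG, any 2 bases, then TTTCC), the AP-1 motif TGANTCA, the interferon motif (GAAA, any 2 bases, then GAAA again) and the GAS motif TTCNNNGAA. In C3ar1 the AP-1 letters stand at -22 to -16 and the NF-κB letters, on the opposite strand, at -14 to -5 before the start, with TATAAA at -235 to -230. The NF-κB letters occur in 1.41% of 32817 promoter windows, the AP-1 letters in 6.75% and TATAAA in 12.4%. C5ar1 held CCAAT, which 33.8% of windows hold, and C1qc the ETS letters, which 10.6% hold. The windows of Cfd, C3, Cfp and C1qb held none of these letters, which says nothing about factors that bind elsewhere or to other letters.

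The anaphylatoxin receptor genes had lower means with TPPU, and only for C3ar1 were the groups apart. With scaling by median of ratios this was so for C5ar1 and not for C3ar1. With quantile normalization, and with the GC trend removed, it was so for both. C3ar1, the receptor of C3a, measured 6.62, 8.05 and 6.58 FPKM in control and 6.02, 5.11 and 6.51 with TPPU. The highest TPPU library lay just under the lowest control, a gap smaller than the spread within either group. The difference was -0.23 (SE 0.12) on the log2 scale, or -0.15 without control replicate 2 or TPPU replicate 2, and -0.30 without TPPU replicate 3. C3ar1 has a low GC content of 43.0%, and with the GC trend removed the difference was -0.30.

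C5ar1, the receptor of C5a, measured 19.2, 19.5 and 23.8 FPKM in control and 19.2, 18.1 and 15.6 with TPPU. TPPU replicate 1 lay within the control range, so the groups overlapped. The difference was -0.22 (SE 0.13), and -0.13 without control replicate 3 and -0.14 without TPPU replicate 3. Without TPPU replicate 1 it was -0.29. As for Cfp, control replicate 3 and TPPU replicate 1 were the highest of their groups. The GC content of C5ar1 is 49.2%, and with the GC trend removed its difference was -0.22. The level of C5ar1 was 2.98 ± 0.60 times that of C3ar1 in control and 3.04 ± 0.58 times with TPPU (SD, n = 3 each). This ratio ranged from 2.40 in TPPU replicate 3 to 3.61 in control replicate 3. The second C5a receptor gene C5ar2, which lies 2589 bp from C5ar1 on chromosome 7 (C5ar1 at 16246743 to 16259540), was at 0.25 FPKM or less in all 6 libraries.

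The genes of the C1q chains, which tissue macrophages express strongly, were at or near the detection limit in this line. C1qa measured 0, 0.0427 and 0 FPKM in control and 0.264, 0.211 and 0.136 with TPPU, on 0, 1, 0, 5, 5 and 3 fragments. Each TPPU library lay above each control, but over the group the counts were 1 fragment against 13. C1qb measured 0, 0.0408 and 0 FPKM in control and 0, 0.242 and 0.0866 with TPPU, on 1 fragment in all controls together and 8 in all TPPU libraries. C1qc measured 0.0878, 0.023 and 0 FPKM in control and 0, 0.0454 and 0 with TPPU, on 4 fragments against 2.

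In TPPU replicate 1, where C1qa was at its highest, C1qb was at 0, which has an exact Poisson upper limit of 3.69 fragments. With so few fragments the 3 genes cannot be ranked or compared in direction. They lie within 18.7 kb on chromosome 4 (136880126 to 136898844), and the flanking Epha8 was at 0.035 FPKM or less. A floor of 3 fragments corresponds to 0.127 to 0.163 FPKM for C1qa, so the C1qa levels with TPPU lie near it and those in control below it.

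Other complement genes were taken from 4 lists of 51 genes, of which 45 were in the table and 14 passed the filter for testing. None of the 14 was called, with Benjamini-Hochberg adjusted p from limma of 0.562 to 0.959, and over all 9728 genes tested limma called 0.0%. At an unadjusted p under 0.05 there was 1 of 14 complement genes, against 768 of all genes tested. The signs were 8 positive and 6 negative, with a median log2 change of 0.12, against 0.02 over all genes tested.

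The receptor partners and C1q-binding proteins included the most abundant of these genes. Calr, calreticulin, which binds C1q and is mainly an endoplasmic reticulum chaperone, was at 498 ± 37.3 FPKM in control and 477 ± 26.0 with TPPU (SD, n = 3 each here and below). Itgb2 and Itgam, the β and α chains of complement receptor 3, were at 200.01 ± 29.0 and 32.4 ± 5.96 in control and at 168 ± 14.0 and 34.0 ± 5.30 with TPPU. In limma Itgb2 differed by -0.25 on the log2 scale (SE 0.12, adjusted p = 0.633), and Itgam by 0.07 (SE 0.16, adjusted p = 0.916). The change of Itgb2 was -0.13 without control replicate 3 and -0.33 without control replicate 1. Itgax, the α chain of complement receptor 4, was at 0.0548 to 0.469 FPKM.

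C1qbp, a mitochondrial protein that also binds C1q, was the one tested gene of these lists whose groups were apart, at 46.8, 47.7 and 32.5 FPKM in control and 55.3, 56.5 and 59.7 with TPPU. Its change was 0.44 (SE 0.15, limma adjusted p = 0.562), or 0.27 without control replicate 3 and 0.54 without control replicate 2. Of all 9728 genes tested, 15.4% had groups apart, 7.48% in the higher direction, so nothing is read from this single gene. Lrp1, a scavenger receptor, was at 29.5 ± 7.24 and 24.5 ± 1.79 FPKM, and Cd93 at 1.29 ± 0.36 and 1.05 ± 0.03. Both had groups that overlapped, and the log2 change of Lrp1, -0.24, was -0.05 without control replicate 3 and -0.35 without control replicate 1.

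Among the regulators, Clu (clusterin, which blocks the terminal complex) was at 12.0 ± 1.76 FPKM in control and 9.23 ± 1.77 with TPPU. The limma estimate for Clu was -0.35 (log2, SE 0.15, adjusted p = 0.627). Cd59a, a membrane inhibitor of the terminal complex, was at 8.78 ± 3.44 and 10.9 ± 0.59. Its change of 0.35 (SE 0.24) was 0.58 without control replicate 2 and 0.04 without control replicate 3, where Cd59a was lowest at 5.06. Cr1l, which encodes the rodent membrane regulator Crry, was at 7.44 ± 1.66 and 9.10 ± 1.04 (log2 change 0.27, SE 0.16). That change was 0.11 without control replicate 3 and 0.40 without control replicate 2. Serping1, the C1 inhibitor, measured 1.41, 0.535 and 0.721 FPKM in control and 0.827, 2.17 and 1.88 with TPPU. Vtn, vitronectin, measured 2.62, 1.82 and 2.06 FPKM in control and 1.43, 4.97 and 3.90 with TPPU. The log2 change of Serping1, 0.46, was 0.71 when TPPU replicate 1 was left out and 0.31 when TPPU replicate 2 was. That of Vtn, 0.40, was 0.78 and 0.13 in the same order. In Vtn, as in C3, TPPU replicate 1 was the lowest library and the other TPPU libraries the highest.

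**Figure D4:**
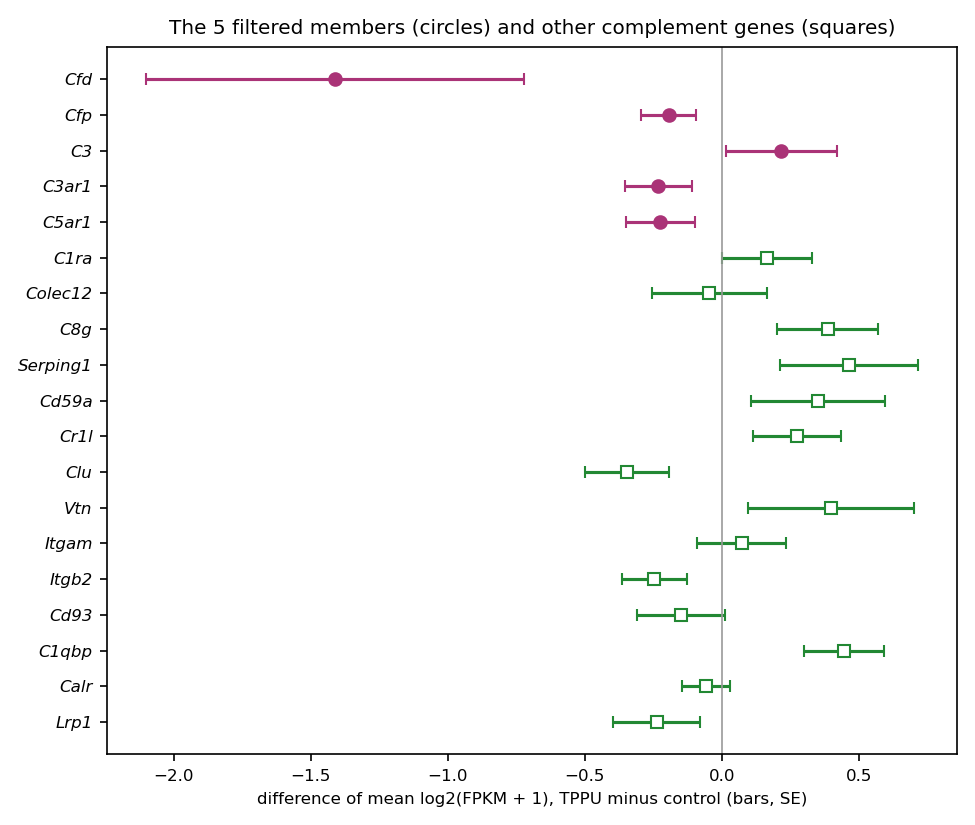
Difference of mean log2(FPKM + 1), TPPU minus control (horizontal axis), with SE bars (from the libraries of each gene for the circles, from limma for the squares), for the 5 filtered genes of the set (filled circles) and 14 other complement genes (open squares). Cfd lies at -1.41 with a wide bar, the other 4 circles lie between -0.23 and 0.22, and the squares between -0.35 and 0.46.

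Of the classical and lectin pathway genes, C1ra, a protease of the C1 complex, was at 2.29 ± 0.61 FPKM in control and 2.66 ± 0.39 with TPPU. Colec12, a collectin scavenger receptor, was at 12.3 ± 3.54 and 11.6 ± 1.85. Fcna, ficolin A, did not reach the filter and ranged from 0.864 to 2.32. Of the terminal pathway, C8g was at 1.40 ± 0.44 and 2.12 ± 0.44 (0.38 in log2, SE 0.18, adjusted p = 0.63 by limma). The difference was 0.24 without control replicate 3 and 0.51 without control replicate 1.

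The other 30 genes of these lists averaged under 1 FPKM, and many are plasma factors made in liver. Of the 30, TPPU replicate 2 lay above all controls in 19, TPPU replicate 3 in 17 and TPPU replicate 1 in 10, which is 63.3%, 56.7% and 33.3%. Over the 8260 rows of the table in the same range of mean levels the shares were 23.9%, 22.6% and 22.2%. Hc, which encodes C5, measured 0.253, 0.191 and 0.184 FPKM in control and 0.210, 0.714 and 0.586 with TPPU, on about 28, 27, 22, 24, 102 and 78 fragments. The counts over the 30 genes take in values near 0, such as Cr2 at 0.0058 FPKM in TPPU replicate 3. For the 6 terminal pathway genes among the 30, TPPU replicate 1 exceeded all controls in 0, replicate 2 in 4 and replicate 3 in 5. The last count includes C7, at 0.0176 FPKM in that library and 0 in the others. TPPU replicates 2 and 3 are the libraries in which C3 and the hepatocyte markers without Alb were highest. The part of liver transcripts in these values was not tested either.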

How the data were processed

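RNA was sequenced in 6 RAW264.7 libraries, 3 control and 3 TPPU, and each column was assigned through the library name that a sample's description gives. The authors deposited FPKM per gene symbol, the unit being read from the file name and checked on the values. Per the submitters' processing notes the build was mm10. No source used here gives the aligner, counter, annotation or filters. Per the labels' protocols, poly(A) RNA was captured and the second strand marked with dUTP. All samples were treated here as 1 batch.

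Depth was chosen as the value that brought low FPKM values of genes with 1 annotated transcript (GENCODE, exon length) nearest to whole fragments. At that depth 92.6% to 94.1% of these values came out whole within 0.1 of a fragment, a share that the choice itself favours. The 30 member values under 100 fragments came out whole within 0.0118, though values of 0 among them are whole at any depth. These fragments are descriptive, and their intervals cover counting error only. The 9728 genes reaching 1 FPKM in 3 or more libraries were tested as log2(FPKM + 1) with limma 3.58.1 under R 4.3.3, using a trend of variance on mean, two-sided, with Benjamini-Hochberg adjustment over all of them. Fold changes on this scale understate the change of low genes. The limma script was tested on simulated data.

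The members and lists were chosen with earlier results of these data known. Text names the 9 members, the listed complement genes with a mean of at least 1 FPKM and Hc, the 5 genes most like Cfd, chromosomal neighbours, Pafah1b1 and Ephx2. Listed complement genes under that mean, marker genes and some neighbours were named after their values were seen. Symbols without a row were not analysed here. Sequences are from RefSeq (GRCm38.p6), and positions are 1-based. Alternatives were pseudocounts of 0.1 and 0.5, testing without a filter, requiring a mean of 5 FPKM, quantile normalization, scaling by median of ratios, no trend, a replicate block, libraries left out, and, added later, removal of a GC trend (lowess, span 0.3, GC known for 97.9% of tested genes). Python 3.11.15, numpy 2.4.6, pandas 2.3.3, scipy 1.17.1 and matplotlib 3.10.9 were used.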

Additional observations from a re-analysis of the deposited data

How the results depend on the processing

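The count of genes called by limma over all genes was 0, with 768 at an unadjusted p under 0.05. It ranged from 0 to 6 with each library left out, and was 6 without TPPU replicate 1, 39 without control replicate 3 and TPPU replicate 1 together, and 3 with the GC trend removed. Cfd, chosen for that pattern, was among the 6 and the 39. The other complement genes called stayed at 0 in every alternative run. The number of members with groups apart was 3, and 3 to 7 with each library left out. With C5ar1 added it was 4 under quantile normalization (12.2% of all genes apart) and with the GC trend removed (13.5%). Leaving out control replicate 1 gave 5 (with 19.8% of all genes apart), leaving out TPPU replicate 1 gave 7 (23.6%), and leaving out control replicate 3 with TPPU replicate 1 gave 7 (36.6%). Fewer libraries make such gaps more frequent. Of 108 alternative values of the members' differences, 102 kept their sign. Cfd was at -3.24 with a pseudocount of 0.1, and between -2.10 and -1.05 with each library left out. Cfb (0.02) ranged from -0.091 to 0.12 with each library left out, being -0.02 without control 2, -0.04 without control 3 and lowest without TPPU 1, and was -0.15 without both libraries. C1qc (-0.03) reversed to 0.0049 without control replicate 1, the upper end of a range from -0.056, and to 0.011 with the GC trend removed. Colec12 (-0.05) reversed to 0.04, 0.11 and 0.08 without control replicate 1, control replicate 2 and TPPU replicate 1, in a range from -0.29. Itgam (0.07) reversed to -0.083 and -0.01 without control replicate 3 and TPPU replicate 3, in a range up to 0.20. The cause was not tested. Deviations from the group means correlated at -0.30, 0.15 and -0.40 between same-numbered libraries, and at 0.51 between control replicate 3 and TPPU replicate 1. Deviations from means of 3 libraries cannot settle whether the replicate numbers pair the samples. With the replicate number as a block limma called 0 genes and 0 other complement genes, with 513 genes at an unadjusted p under 0.05. At these depths C1q transcripts at the level of a few fragments cannot be ranked between groups, and with 3 libraries a group an exact permutation test of a single gene cannot go below 0.1.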

Other observations

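Ephx2, which encodes soluble epoxide hydrolase, the enzyme that TPPU inhibits, measured 0.865, 0.447 and 0.632 FPKM in control and 0.420, 2.56 and 1.54 in TPPU replicates 1, 2 and 3. Its level was thus highest in TPPU replicates 2 and 3, and in TPPU replicate 1 just under the lowest control. Ephx2 did not reach the filter for testing, and the part of liver transcripts in its values was not tested. Of the hepatocyte markers not given above, Apoa1 was at 4.71, 6.94 and 4.74 FPKM in control and 5.29, 18.2 and 15.5 with TPPU, and Serpina1a, which has near-identical paralogs and is uncertain for that reason, was at 1.42, 1.79 and 1.91 in control and 1.95, 4.98 and 4.83 with TPPU, both with TPPU replicates 2 and 3 above all other libraries.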
